A study of Homo sapiens with 8 samples.

Results

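The genes described here encode the initiation and elongation factors of cytoplasmic translation. They were all genes of the count table whose symbol began with EIF1 to EIF6 or with EEF1 or EEF2, leaving out the EIF2AK kinases and names that end in P and a number, which are mostly processed copies. The rule used names alone and found 59 of 56303 genes, 49 of initiation (EIF) and 10 of elongation (EEF), on 21 chromosomes. They were measured by MeRIP-seq in SK-N-BE(2), an established human neuroblastoma cell line, which carried either a control construct (sh-NC) or METTL14-directed shRNA (shMETTL14). METTL14 is the partner of METTL3 in the enzyme complex that places N6-methyladenosine (m6A) on messenger RNA. Each arm had 2 cultures, and each culture gave 1 input library (fragmented poly(A) RNA) and 1 IP library (the fragments bound by an antibody against m6A), 8 libraries in all. The sources used here do not say whether cultures 1 and 2 of an arm carried the same hairpin or were separate infections, so p-values measure the spread between these cultures, which may be technical.

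Translation of most mRNAs starts when eIF4E binds the cap, eIF4G bridges the cap to the ribosome, and the helicase eIF4A opens the leader with eIF4B or eIF4H. The small subunit arrives with eIF3, eIF1, eIF1A and the initiator tRNA held by eIF2, whose GTP is renewed by eIF2B, and eIF5 and eIF5B complete subunit joining. eEF1A then delivers each aminoacyl-tRNA, the eEF1B subunits reload it with GTP, eEF2 moves the ribosome along, and eIF5A helps at stalling sequences. Many mRNAs of this machinery begin with a C and a run of pyrimidines, the terminal oligopyrimidine (TOP) motif through which mTOR signalling controls their translation.

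METTL14 had 49.5 and 48.8 CPM (counts scaled to a common library size with TMM factors) in the sh-NC inputs and 13.7 and 14.6 CPM in the shMETTL14 inputs. The shMETTL14 level was 0.289 times that of sh-NC (log2 fold change -1.79 ± 0.07 SE, adjusted p = 1.28e-15 edgeR quasi-likelihood test, Benjamini-Hochberg method, as for every adjusted p below). Total counts ran from 32027379 to 47205265 per library, and the translation factor genes took 1.84% to 1.98% of them. MYCN, amplified in this line, had 4224 to 4452 CPM in the inputs, and the 8 adrenergic neuroblastoma markers summed to 5557 to 5831 CPM. The endothelial markers PECAM1, VWF and CDH5 summed to 1.44 to 2.49 CPM, the immune markers PTPRC, CD68 and CD3E summed to 12.9 to 20.2 CPM, nearly all of it CD68 (12.3 to 19.4 CPM), with CD3E at 0 to 0.0957 CPM, and the 4 fibroblast markers summed to 265.7 to 278.6 CPM, most of it COL3A1 and COL1A1.

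The start of the transcript is shown for 6 genes because it separates members that otherwise serve the same process. The sequences are 24 bases on the gene's strand from RefSeq (GRCh38.p14), 8 before and 16 from the annotated start. Capitals mark a run that begins with C at the start itself and continues with at least 4 bases each C or T, called a pyrimidine start here. EEF1A1 lies at chr6:73521017-73521040 (minus strand), EEF2 at chr19:3985448-3985471 (minus), EIF4B at chr12:53006448-53006471 (plus), EIF2A at chr3:150546779-150546802 (plus), EEF1G at chr11:62573876-62573899 (minus) and EIF1AX at chrX:20141823-20141846 (minus).
EEF1A1: tgaacgttCTTTTTCgcaacgggt
EEF2: tcagcgttCTCTTCCgccgtcgtc
EIF4B: atccgggtCTTTTgcgttctcttt
EIF2A: agcggtttCTCTTTCCgggacaac
EEF1G: ggcggcttactttgcggcagcgcc
EIF1AX: gtcgcggcgccatttgctgccgcc
Of the 59 genes, 48 had an entry in the RefSeq promoter table, 1 of them under a newer symbol, and 13 of these 48 (27.1%) had a pyrimidine start at a listed start, beside 5.14% of the 27305 genes in that table. Among the 11588 genes with an entry that were tested in the input comparison, the share was 6.99%. The other 9 of the 13 were EEF1B2, EIF2D, EIF2S3, EIF2S3L, EIF3D, EIF3F, EIF3K, EIF3M and EIF4A2. EIF2S3 and EIF2S3L are near copies and were counted separately. The motif was sought only at annotated starts and on the gene's own strand, and no match says only that these letters are not at these positions.

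In the input libraries the translation factor genes were abundant. Their median level in sh-NC was 27.5 CPM per kb of exon, beside 2.65 CPM per kb over the 22953 genes tested in the model of all 8 libraries, and 53 of the 58 tested lay above that. The length is that of all annotated exons of a gene merged, not of a single transcript, so levels and shares per kb depend on the annotation. Only EIF4E1B, with 10 counts over all 8 libraries, was too low to test. The highest level per kb was that of EEF2, the translocase, at 753 ± 12.8 CPM per kb (SD, n = 2), followed by EEF1G at 540.0 ± 14.5 and EEF1A1 at 331.6 ± 5.17. EIF3A, the largest scaffold subunit of eIF3, had 274.9 ± 5.83 CPM per kb and EEF1B2, an exchange subunit for eEF1A, had 264.7 ± 3.55. At the other end EIF4E3, EIF5AL1 and EIF5A2 had 1.56, 1.48 and 1.36 CPM per kb.

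**Figure D1:**
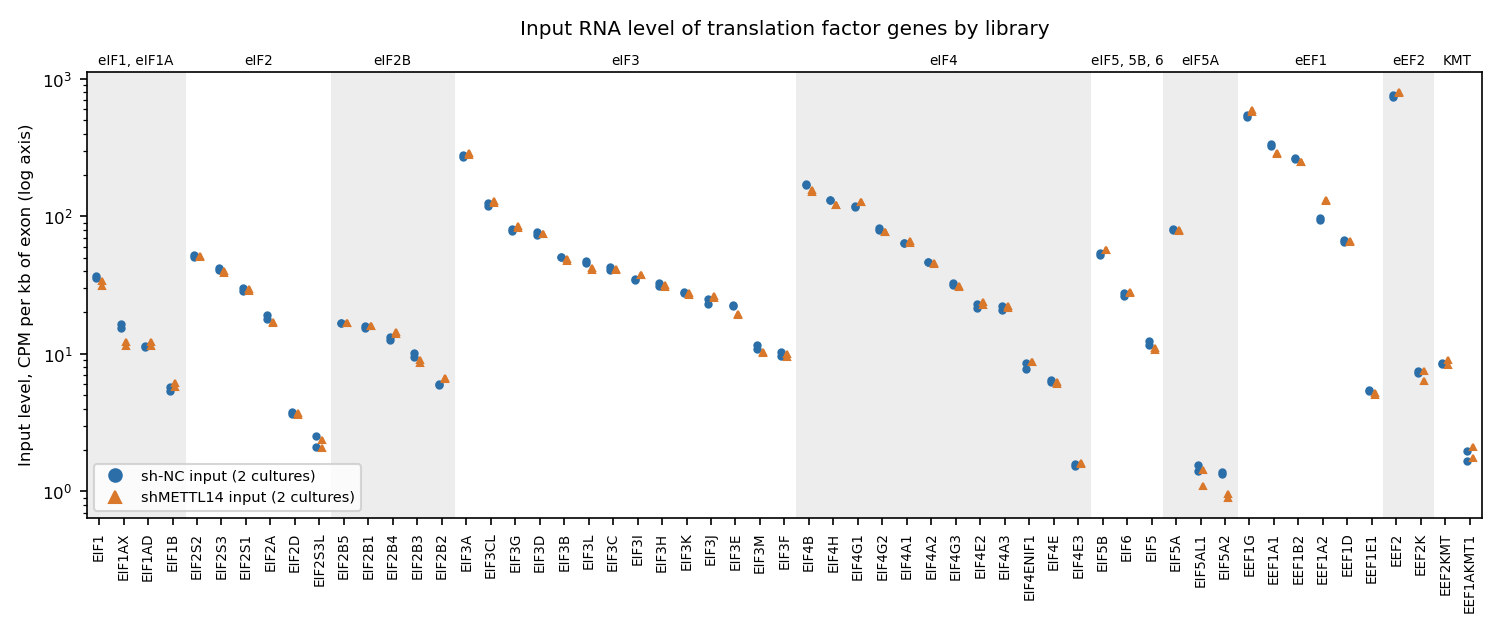
Input level of 57 translation factor genes in CPM per kb of exon on a log axis, grouped by role, with circles for the 2 sh-NC cultures and triangles for the 2 shMETTL14 cultures. EEF2 (753 CPM per kb in sh-NC) and EEF1G (540.0) stand at the top and EIF5A2 (1.36) at the bottom, and EEF1A2, EIF1AX and EIF5A2 show the clearest gap between the arms.

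Levels of some members share reads with other genes. Of the 59, 35 share exonic bases with another gene of the table: 99.9% of the exonic bases of EEF1G lie in the readthrough gene RP11-864I4.1, 51.8% of those of EIF3L in other genes, 48.6% of those of EIF4A1, mostly in SENP3-EIF4A1, and 34% of those of EEF1D. The 39 processed copies of EEF1A1 in the table held 103% of the counts of EEF1A1 itself. EIF3C and EIF3CL, EIF2S3 and EIF2S3L, and EIF5A and EIF5AL1 are near copies of each other, so the split of reads within each pair is uncertain.

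The first comparison set shMETTL14 input against sh-NC input, which asks how RNA levels differed after METTL14 knockdown. The 2 genes for eEF1A moved in opposite directions: EEF1A2, the form of neurons and muscle, rose 1.37-fold, and EEF1A1, the general form, fell to 0.869 times its sh-NC level. Levels of EIF1AX, EIF5A2, EIF3E and EIF3L also fell, and those of EIF4G1 and EEF1G rose slightly. Of the 58 members tested, 6 were higher, 11 were lower and 41 did not pass the test. The 17 called are 29.3% of the members, beside a background of 24.0% of the 22245 genes tested (11.7% higher and 12.3% lower), so the members' share was near that of all genes. Their median log2 fold change was -0.02, beside 0.0024 for all genes. The largest fold among the called members was in EIF5A2, at 0.685 times.

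**Figure D2:**
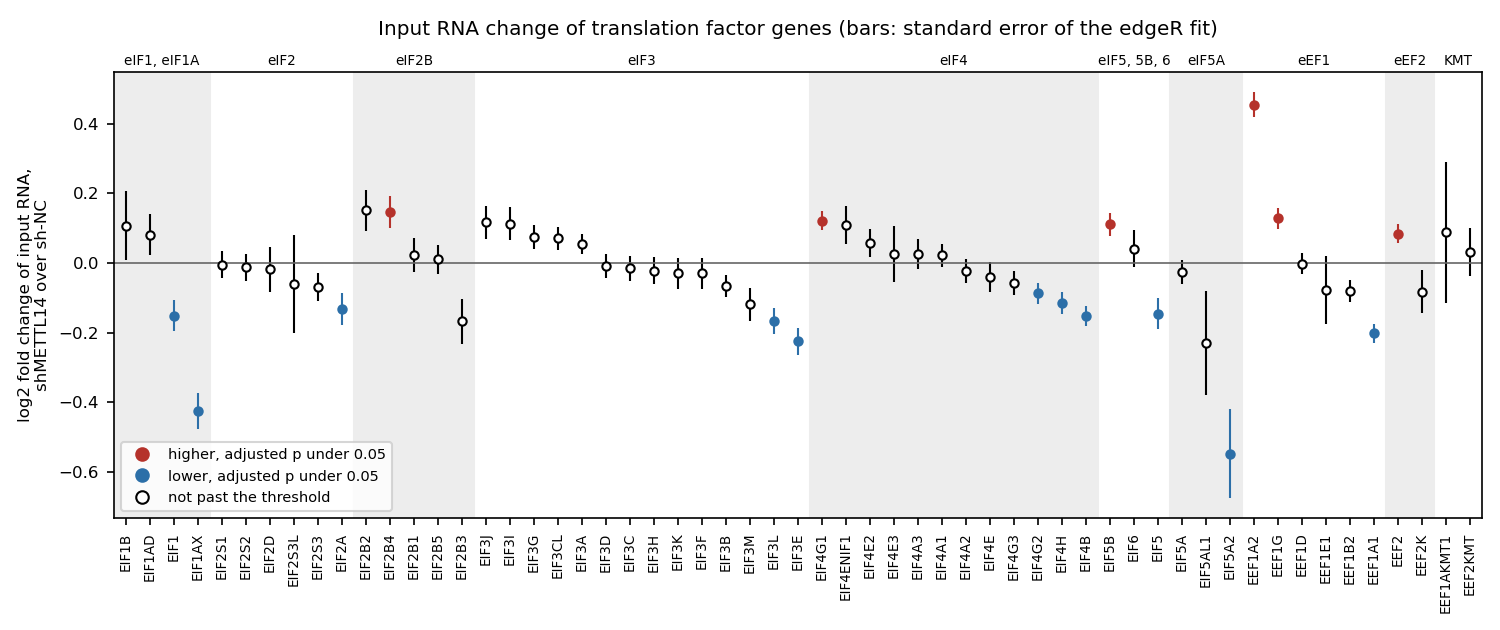
Log2 fold change of input RNA, shMETTL14 over sh-NC, for 57 translation factor genes grouped by role, with bars for the standard error of the edgeR fit. Filled points passed an adjusted p of 0.05 (red higher, blue lower): EEF1A2 is highest at 0.45 and EIF5A2 lowest at -0.55, while most members lie near 0.

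EEF1A2 (chr20:63488013-63499315, minus strand) had 189.1 and 196.6 CPM in the sh-NC inputs and 265.7 and 260.2 CPM in the shMETTL14 inputs. Both knockdown cultures lay above both control cultures. The log2 fold change was 0.45 ± 0.04 (SE) with an adjusted p of 9.34e-10. Here and below, lack of overlap in the input is given for called genes only and adds no support to the call. Its share over all genes was not counted. EEF1A1 (chr6:73515750-73523797, minus strand) had 1950 and 1994 CPM in sh-NC against 1710 and 1703 CPM in shMETTL14, again without overlap and in the other direction. Its log2 fold change was -0.20 ± 0.03 (adjusted p = 4.70e-06). Per kb of exon, EEF1A2 made up 22.3% and 22.6% of the summed EEF1A1 and EEF1A2 level in sh-NC, beside 31.5% and 31.2% after METTL14 knockdown. These shares leave out the processed copies of EEF1A1 and divide by merged exons of 5948 bases for EEF1A1 and 2006 for EEF1A2. Their size depends on both choices, so they are not shares of molecules. The processed copies of EEF1A1, whose reads cannot be told apart from those of the gene by these counts, moved with it: their summed level went from 1946 and 1896 CPM to 1651 and 1597 CPM. Gene and copies together gave a log2 ratio of -0.23.

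The other elongation genes changed less. EEF1G, a structural subunit of eEF1B, had 1494 and 1439 CPM in sh-NC against 1622 and 1568 CPM in shMETTL14, a log2 fold change of 0.13 ± 0.03 (adjusted p = 0.00217). EEF2 had 2996 and 3069 CPM against 3224 and 3175 CPM. Its groups did not overlap, and its rise of 0.08 on the log2 scale was the smallest among those called (adjusted p = 0.0223). The exchange subunits EEF1B2 (-0.08, adjusted p = 0.0686) and EEF1D (0.00, adjusted p = 0.981) did not pass, nor did EEF2K, the kinase that inhibits eEF2 (-0.08, adjusted p = 0.375). The lysine methyltransferase genes EEF1AKMT1 and EEF2KMT did not pass either, at 0.09 and 0.03.

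**Figure D3:**
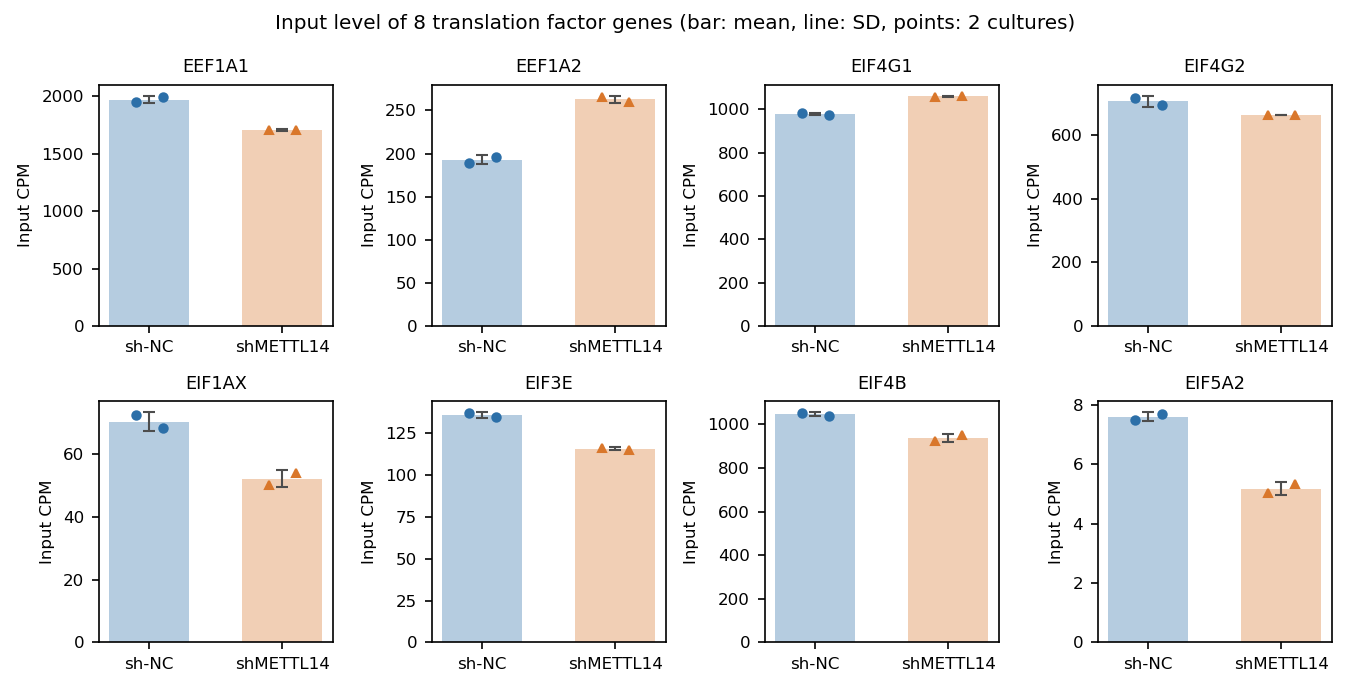
Input level in CPM of 8 genes in sh-NC and shMETTL14, with bars for the mean, lines for the SD and points for the 2 cultures per arm, on axes that start at 0. EEF1A2 (189.1 and 196.6 against 265.7 and 260.2 CPM) and EIF4G1 are higher in both knockdown cultures, and the 6 others are lower.

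Among the factors that set the start codon, EIF1AX fell and EIF1 fell slightly, 2 of the 5 members of that list. EIF1AX (chrX:20124518-20141844, minus strand), which encodes eIF1A, had 72.5 and 68.4 CPM in sh-NC against 50.3 and 54.2 CPM in shMETTL14. Both knockdown cultures were below both controls, with a log2 fold change of -0.43 ± 0.05 (adjusted p = 8.90e-07). EIF1, which guards against starting at wrong codons, had 134.1 and 128.2 CPM against 122.6 and 112.5 CPM (-0.15 ± 0.04, adjusted p = 0.0135). Its paralog EIF1B went from 11.0 and 10.3 to 11.7 and 11.0 CPM and did not pass (0.11, adjusted p = 0.499). Values of EIF1AY, on chromosome Y and similar in sequence to EIF1AX, are not given.

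The 3 subunits of eIF2 stayed close to their control levels, and the log2 fold changes of EIF2S1, EIF2S2 and EIF2S3 were -0.01, -0.01 and -0.07 (adjusted p from 0.228 to 0.949). EIF2A, a separate initiator tRNA binding protein, had 79.6 and 74.2 CPM in sh-NC against 70.0 and 69.8 CPM in shMETTL14, a fall of 0.13 ± 0.05 on the log2 scale (adjusted p = 0.0438). Of the 5 eIF2B subunits, EIF2B4 rose from 67.7 and 70.4 CPM to 75.0 and 77.1 CPM (0.15 ± 0.05, adjusted p = 0.0217). EIF2B2 (0.15, adjusted p = 0.0699) and EIF2B3 (-0.17, adjusted p = 0.0591) had changes of about this size in opposite directions and did not pass. EIF2B1 and EIF2B5, the latter the catalytic subunit, were at 0.02 and 0.01.

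In eIF3, the complex of many subunits on which the small ribosomal subunit is loaded, 2 of 14 genes passed, both lower. EIF3E (chr8:108201216-108435333, minus strand) had 136.8 and 134.6 CPM in sh-NC against 116.1 and 115.0 CPM in shMETTL14 (-0.22 ± 0.04, adjusted p = 0.000108). EIF3L had 204.5 and 196.9 CPM against 180.6 and 175.3 CPM (-0.17 ± 0.04, adjusted p = 0.00144). The groups of EIF3E and EIF3L did not overlap. Both encode subunits that budding yeast lacks, but so do EIF3D, EIF3F, EIF3H, EIF3K and EIF3M. These did not pass, at -0.01, -0.03, -0.02, -0.03 and -0.12. The 12 genes of eIF3 that did not pass ran from -0.12 for EIF3M (adjusted p = 0.0684) to 0.12 for EIF3J (adjusted p = 0.0781). Of the subunits shared with yeast, EIF3A, EIF3B, EIF3C, EIF3G and EIF3I were at 0.05, -0.07, -0.02, 0.07 and 0.11.

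Of the 12 tested genes of the eIF4 group, EIF4G1 rose and EIF4B, EIF4H and EIF4G2 fell. EIF4G1, the main scaffold of the cap complex, had 981.6 and 973.3 CPM in sh-NC against 1057 and 1060 CPM in shMETTL14 (0.12 ± 0.03, adjusted p = 0.00242). EIF4G2, a relative that does not bind eIF4E, had 718.2 and 694.8 CPM against 662.4 and 661.9 CPM (-0.09 ± 0.03, adjusted p = 0.0398). Neither gene's groups overlapped. Per kb, the share of EIF4G1 in the summed level of the 3 EIF4G genes was 50.6% and 51.3% in sh-NC against 54.4% and 54.5% in shMETTL14, and that of EIF4G2 was 35.3% and 34.96% against 32.5% in both. EIF4G3 was at -0.06 (adjusted p = 0.244).

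The helicase partners EIF4B and EIF4H fell together. EIF4B had 1051 and 1039 CPM in sh-NC against 923.2 and 949.1 CPM in shMETTL14 (-0.15 ± 0.03, adjusted p = 0.000321). EIF4H had 422.4 and 421.0 CPM against 387.2 and 387.9 CPM (-0.12 ± 0.03, adjusted p = 0.00867). The EIF4A genes did not pass, with EIF4A1 at 0.02, EIF4A2 at -0.02 and EIF4A3 at 0.03. EIF4A1 made up 48.4% to 49.3% of the summed level of these genes per kb in all 4 inputs. The cap-binding genes did not pass either: EIF4E was at -0.04, EIF4E2 at 0.06 and EIF4E3 at 0.03. EIF4E2, which binds caps but represses translation, had the largest share of the 3 per kb, 73.5% to 75.2%. That share depends on merged exon lengths, 14067 bases for EIF4E and 7177 for EIF4E2. In plain CPM EIF4E2 had 165.8 and 155.1 in sh-NC, beside 90.2 and 88.2 for EIF4E.

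Among the late-acting factors, EIF5, the GTPase activator of eIF2, had 105.0 and 99.4 CPM in sh-NC against 93.2 and 90.8 CPM in shMETTL14 (-0.14 ± 0.04, adjusted p = 0.0154). EIF5B, the GTPase of subunit joining, had 428.0 and 410.4 CPM against 452.5 and 448.8 CPM (0.11 ± 0.03, adjusted p = 0.0138). The 2 moved in opposite directions, each without overlap, and EIF6, which keeps free large subunits apart from small ones, was at 0.04 (adjusted p = 0.659). EIF5A, the general form, had 229.6 and 225.5 CPM against 221.5 and 223.4 CPM (-0.03, adjusted p = 0.662). EIF5A2, its low-level paralog, had 7.497 and 7.71 CPM against 5.02 and 5.34 CPM (-0.55 ± 0.13, adjusted p = 0.00218). EIF5A2 was thus 1.62% and 1.69% of the pair's level per kb in sh-NC against 1.13% and 1.19% in shMETTL14.

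The calls differ in how far they rest on single cultures. EEF1A1, EEF1A2, EIF1AX, EIF3E and EIF4B passed in every alternative that tested them, 5 of the 17. Without shMETTL14 culture 2 only those 5 of the 17 passed, and 7, 11 and 16 passed without shMETTL14 culture 1, sh-NC culture 1 and sh-NC culture 2. The direction of all 17 was the same each time.

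By transcript start, 12 of the 13 genes with a pyrimidine start had a negative log2 fold change in the input comparison and 1, EEF2, a positive one. They ran from -0.20 for EEF1A1 to 0.08 for EEF2, with a median of -0.06, and 3 of them (EEF1A1, EIF4B, EIF2A) were called lower and 1 (EEF2) higher. The 34 other members with an entry and a test were evenly divided, 17 positive and 17 negative, with a median of 0.00 and with 4 called higher and 6 lower. Over all genes with a pyrimidine start, members included, 457 of 810 were negative, 190 were called lower and 109 higher, and the median was -0.03. Over all genes with another start, 5327 of 10778 were negative, 1694 were called lower and 1625 higher, and the median was 0.003. Only 11588 of the 22245 genes tested had a promoter entry, so these shares do not stand for all genes. This grouping was made after the values had been seen and is a description with no test.

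The second comparison set IP against input within each arm, which shows how far a gene's fragments were held by the m6A antibody relative to other genes. A ratio of CPM above 1 means a larger share of the IP than of the input, averaged over the whole gene. Ratios ran from 2.05 for EIF3J to 0.233 for EIF6 in single cultures. In sh-NC 21 of 58 members were higher in the IP, 28 were lower and 9 did not pass. The 49 called are 84.5% of the members, beside 58.9% of the 22953 genes tested (29.1% higher, 29.8% lower). In shMETTL14 22 were higher and 28 lower, 86.2% beside 58.0% of all genes (28.9% higher, 29.1% lower). A gene with more counts can pass with a smaller difference, and members were more abundant than most genes. Whether this accounts for their larger share of calls was not tested. The same direction was called in both arms for 47 members and the opposite for 0. Agreement between the arms was not counted over all genes, so it is not read as a trait of the members.

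**Figure D4:**
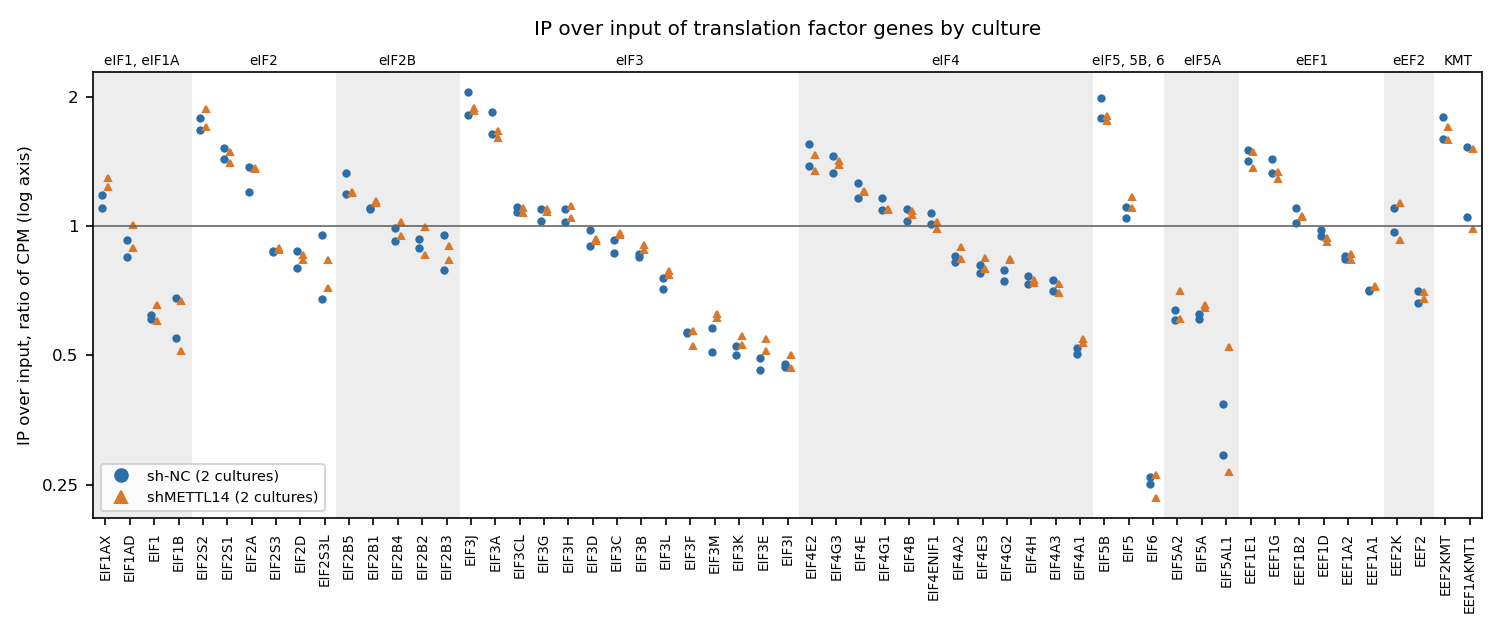
IP over input as a ratio of CPM on a log axis for 57 translation factor genes grouped by role, with circles for the 2 sh-NC cultures, triangles for the 2 shMETTL14 cultures and a line at 1. EIF3J and EIF5B stand near 2 and EIF6 near 0.25 in all 4 cultures, and the eIF3 subunits spread from EIF3J (1.81 and 2.05 in sh-NC) to EIF3I (0.470 and 0.477).

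EIF3J, a loosely bound eIF3 subunit, had the highest IP over input, with 1.81 and 2.05 in sh-NC against 1.86 and 1.88 in shMETTL14 (log2 0.95 ± 0.05 in sh-NC, adjusted p = 3.73e-24). EIF5B had 1.79 and 1.99 in sh-NC against 1.76 and 1.81 in shMETTL14 (log2 0.92 ± 0.04, adjusted p = 5.55e-27). Next came EIF3A at 1.64 and 1.84 (log2 0.80), EIF2S2 at 1.68 and 1.78 (log2 0.79) and EEF2KMT, which methylates eEF2, at 1.59 and 1.79 (log2 0.75). All 5 had ratios above 1.5 in every culture of both arms.

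At the low end EIF6 had ratios of 0.260 and 0.2502 in sh-NC against 0.263 and 0.233 in shMETTL14 (log2 -1.97 ± 0.07 in sh-NC, adjusted p = 3.01e-28). EIF5AL1, with few counts, had 0.385 and 0.294 in sh-NC against 0.267 and 0.524 in shMETTL14 (log2 -1.55 ± 0.19, adjusted p = 5.40e-10). EIF3I had 0.470 and 0.477 (log2 -1.08), EIF3E 0.463 and 0.494 (log2 -1.07) and EIF4A1 0.521 and 0.504 (log2 -0.96) in sh-NC. The ratios of EIF6, EIF3I, EIF3E and EIF4A1 were below 0.55 in all 4 cultures.

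Subunits of one complex did not share a ratio. In eIF3, 4 genes were higher in the IP in sh-NC and 9 lower: EIF3J, EIF3A, EIF3CL and EIF3G were above 1, EIF3D, EIF3C, EIF3B and EIF3L were moderately low, and EIF3F, EIF3M, EIF3K, EIF3E and EIF3I ran from 0.463 to 0.579. The near copies EIF3C (log2 -0.15, adjusted p = 0.000419) and EIF3CL (0.13, adjusted p = 0.00209) were called in opposite directions in sh-NC. In eIF2, EIF2S1 and EIF2S2 were high in the IP (log2 0.56 and 0.79) and EIF2S3 low (-0.19, adjusted p = 7.67e-05). The eIF2B subunits were nearer to 1, from -0.21 for EIF2B3 to 0.33 for EIF2B5 in sh-NC.

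Members grouped here by like names, which need not share a function, differed in direction in some groups and not in others. EIF4G3 (log2 0.48) and EIF4G1 (0.17, adjusted p = 2.74e-05) were high and EIF4G2 low (-0.38, adjusted p = 1.54e-13) in sh-NC. All 3 EIF4A genes were low, at -0.96 for EIF4A1, -0.25 for EIF4A2 and -0.46 for EIF4A3. EIF4E2 (0.55) and EIF4E (0.27) were high and EIF4E3 low (-0.33). EIF1 and EIF1B were both low (-0.70 and -0.72), EIF1AX was high (0.19, adjusted p = 0.000998), and EIF5A, EIF5A2 and EIF5AL1 were all low.

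Of the abundant elongation genes, EEF1A1 and EEF2 were low in the IP and EEF1G high. EEF1A1 had ratios of 0.710 and 0.708 in sh-NC against 0.723 and 0.727 in shMETTL14 (log2 -0.50 ± 0.03, adjusted p = 1.70e-18). EEF2 had 0.706 and 0.661 against 0.675 and 0.702 (log2 -0.55 ± 0.03, adjusted p = 3.66e-20). EEF1G had 1.33 and 1.43 against 1.29 and 1.33 (log2 0.47 ± 0.03, adjusted p = 3.92e-17), while its partners EEF1B2 and EEF1D did not pass in sh-NC (0.08 and -0.06). EEF1A2 was at -0.24 (adjusted p = 4.46e-07). Of the 13 members with a pyrimidine start, 9 were called lower and 2 higher in the sh-NC IP, beside 16 lower and 14 higher of the 34 others. Over all genes with a pyrimidine start and a promoter entry, 353 of 817 were called lower and 253 higher, with a median of -0.14, beside -0.26 for the 13 members. Over all genes with another start, 3447 of 10933 were called lower and 3822 higher, with a median of 0.03.

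These directions are relative to the other genes of a library. With library size alone as the scale, 14 members were higher and 32 lower in sh-NC, in place of 21 and 28, and 15 were higher and 32 lower in shMETTL14, in place of 22 and 28. The median log2 IP over input of all genes was then -0.14 in sh-NC and -0.13 in shMETTL14. EIF3G, EIF4B and EIF5 in sh-NC and EIF3H and EIF4B in shMETTL14, all called higher with TMM factors, were slightly below 0 on this scale and did not pass, and EIF4G1 and EIF1AX were among the other genes whose higher call in sh-NC was lost. Across the 58 members, log2 IP over input in sh-NC had a Pearson correlation of 0.05 with the log2 length of the longest exon, 0.15 with that of the exonic length and 0.36 with that of the number of exons. The same values over all 22953 genes were 0.19, 0.19 and 0.10. Genes are not independent replicates, and these describe the set.

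Input change and antibody ratio are set side by side as a description, since both use the sh-NC inputs. Of the 6 members higher in the shMETTL14 input, 3 were high in the sh-NC IP, 2 low and 1 not called. Of the 11 lower in the input, 4 were high and 7 low. Of the 41 not called in the input, 14 were high, 19 low and 8 not called. This split was not counted over all genes tested, so no link between input change and antibody ratio is drawn from it.

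The third comparison asked whether IP over input itself differed between shMETTL14 and sh-NC, as the interaction in the model of all 8 libraries. Of the 58 members, 0 passed the threshold, beside 1 of 22953 genes tested (0.00436%), by edgeR, and 0 by DESeq2. At an unadjusted p under 0.05 there were 4 members, all higher, or 6.9% beside 6.34% of all genes, and 2 members by DESeq2, both higher. That direction rested on single cultures: without sh-NC culture 1 the unadjusted count was 0 higher and 8 lower, without sh-NC culture 2 it was 6 higher and 0 lower, without shMETTL14 culture 1 it was 0, and without shMETTL14 culture 2 it was 1 higher. With the replicate block it was 2 higher. The log2 changes of the members shown ran from -0.09 for EIF3A to 0.19 for EIF3M, with a median over all 58 of 0.01. Both shMETTL14 ratios lay above both sh-NC ratios in 13 of the 58 members, beside 3876 of 22330 genes with ratios in all cultures (17.4%). They lay below them in 1 of the 58, beside 3882 of the 22330 (17.4%).

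**Figure D5:**
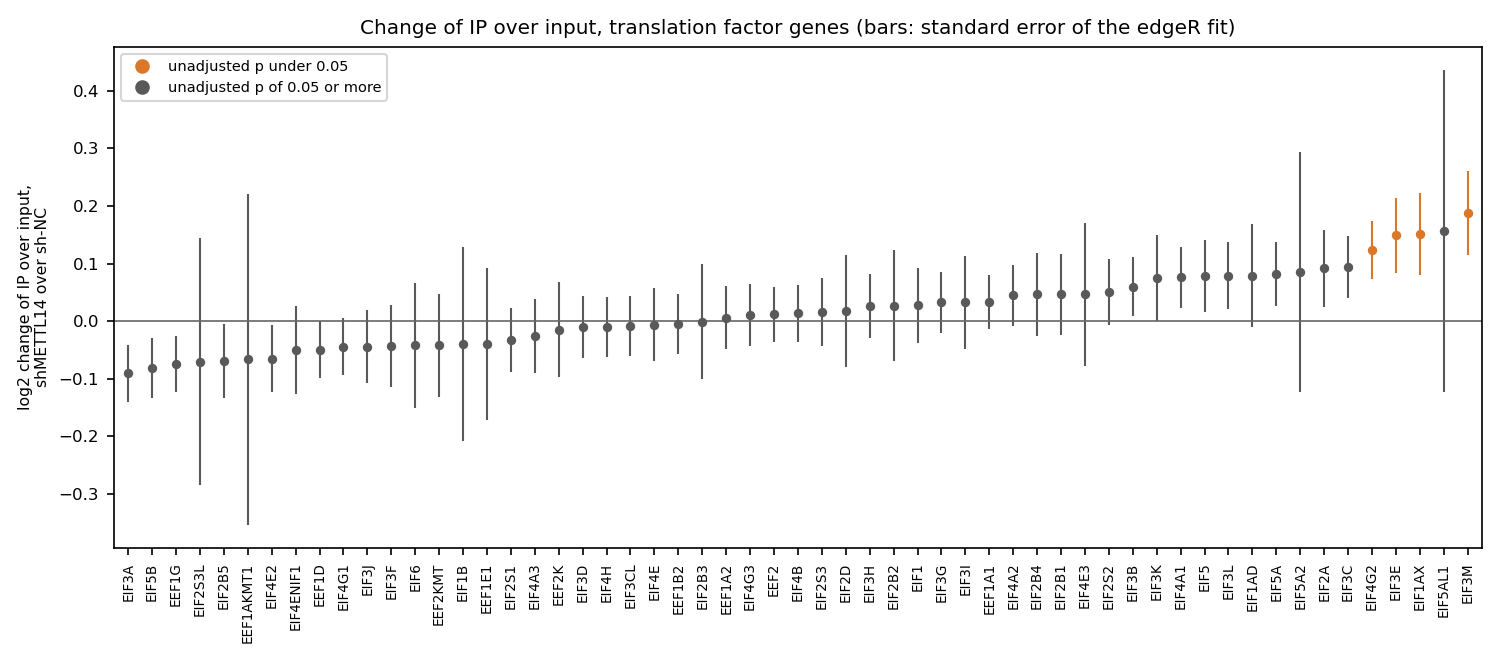
Log2 change of IP over input, shMETTL14 over sh-NC, for 57 translation factor genes in rising order, with bars for the standard error of the edgeR fit and orange for an unadjusted p under 0.05. All points lie between -0.09 (EIF3A) and 0.19 (EIF3M), and none passed the adjusted threshold.

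The 4 members with the smallest p were EIF3M, EIF4G2, EIF3E and EIF1AX. EIF3M had ratios of 0.510 and 0.579 in sh-NC against 0.612 and 0.623 in shMETTL14, a log2 change of 0.19 ± 0.07 (unadjusted p = 0.0130, adjusted p = 0.679 by edgeR). EIF4G2 had 0.746 and 0.791 against 0.840 and 0.834 (0.12 ± 0.05, unadjusted p = 0.0167, adjusted p = 0.700 by edgeR). EIF3E had 0.463 and 0.494 against 0.546 and 0.513 (0.15 ± 0.07, unadjusted p = 0.0278, adjusted p = 0.720 by edgeR). In these 3 both knockdown cultures lay above both controls, and EIF1AX showed the same order, with 1.10 and 1.18 against 1.29 and 1.24 (0.15, adjusted p = 0.762 by edgeR). The 4 were picked for a small p in this same comparison, so this order adds no support. The input levels of EIF4G2, EIF3E and EIF1AX were lower in shMETTL14, while EIF3M did not pass there (-0.12, adjusted p = 0.0684 by edgeR). The ratio has the input level as its denominator, and whether this bears on the changes was not tested. The standard errors of the change were 0.05 to 0.07 for these 4, so a change of this size cannot be told from no change after adjustment.

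EEF1A1 and EEF1A2, which moved in opposite directions in the input, had changes of IP over input of 0.03 ± 0.05 and 0.01 ± 0.05. EIF3A and EIF5B, high in the IP in both arms, had changes of -0.09 ± 0.05 and -0.08 ± 0.05. Without sh-NC culture 1 these 2 were called lower, EIF3A at -0.19 (adjusted p = 0.00337) and EIF5B at -0.18 (adjusted p = 0.0463), and no other setting gave a call among the members. The ratios of both genes were lower in sh-NC culture 1 (1.64 and 1.79) than in sh-NC culture 2 (1.84 and 1.99).

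Genes that act on these factors but fall outside the naming rule were counted in 6 lists of 30 genes, of which 7 were higher and 3 lower in the shMETTL14 input and 20 did not pass. The 10 called are 33.3% of the 30, beside 24.0% of all genes tested (11.7% higher and 12.3% lower). Among the 8 genes of mTOR and MNK signalling to initiation, 4 rose and 0 fell, a description of a short list with no test. MKNK2, a kinase of eIF4E, had 30.5 and 33.2 CPM in sh-NC against 43.4 and 41.3 CPM in shMETTL14 (0.42 ± 0.06, adjusted p = 1.39e-05). The others were MTOR (0.18, adjusted p = 0.000917), RPS6KB1, which encodes the S6 kinase (0.21, adjusted p = 0.00877), and PDCD4, an inhibitor of eIF4A (0.21, adjusted p = 0.000517). The 4 remaining, RPTOR, RPS6KB2, MKNK1 and LARP1, ran from -0.01 to 0.14 and did not pass.

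Of the 4 eIF2 alpha kinases only EIF2AK4, the kinase that senses uncharged tRNA, passed (0.13, adjusted p = 0.0394). PPP1R15A, the stress-induced subunit of the opposing phosphatase, rose as well (0.18, adjusted p = 0.00175), and PPP1R15B did not pass (-0.03). EIF4EBP1, an eIF4E-binding repressor, was the only one of its 3 genes called (0.13, adjusted p = 0.0139). Of the 7 genes of termination, recycling and poly(A) binding, ABCE1, which splits ribosomes, fell by 0.20 and PABPC1, the main poly(A)-binding protein, fell by 0.13 on the log2 scale (adjusted p = 0.00105 for both). Of the 6 mitochondrial factors only GFM1, the mitochondrial elongation factor G, passed (-0.21, adjusted p = 0.00114). None of the 30 passed for the change of IP over input.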

How the data were processed

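The authors deposited 1 table of raw counts per gene for 8 libraries; per the labels, poly(A) RNA was fragmented, immunoprecipitated with an anti-m6A antibody and made into stranded, UMI-tagged paired-end libraries, with Trimmomatic 0.36 and GRCh38 in the submitters' processing notes. The aligner, counting tool, strand setting and UMI handling are not given in the sources used here. Some exons are counted for more than 1 gene.

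Tests were run with edgeR 4.0.16 under R 4.3.3 (filterByExpr, TMM, glmQLFit, glmQLFTest, Benjamini-Hochberg adjustment over all genes tested, threshold 0.05). The input comparison used 4 libraries; the others used 1 model of 8 libraries with 4 group means. CPM are TMM-scaled, and IP over input of a culture is a ratio of CPM. Each standard error is the size of the log2 fold change over the square root of F. The fits were tested on simulated data. With 2 cultures per arm an exact permutation test cannot go below p = 0.333.

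The members, lists and tests were chosen with earlier results of these data known. Genes named with values were METTL14, the 10 called members with the largest input change, the 5 highest and 5 lowest called for IP over input in sh-NC (means of at least 50 counts), the 3 with the smallest p for its change, paralog groups and core subunits; EIF2A, EIF4H, EIF1AX in the third comparison, other members at the ends of a range and the called pathway genes were named after their values were seen. As alternatives, the fits were repeated with library size alone, RLE factors, DESeq2 1.42.0, a minimum of 10 counts in every library, no filter beyond 1 read, genes without exon overlap, a replicate block, the input contrast in the 8-library model, leaving out each culture and, added after seeing the data, processed copies summed into their parent gene. Deviations of same-numbered libraries from their group means correlated by -0.012 to 0.004, and replicates differed by more than sampling noise (chi-square per gene 2.43 to 3.99).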

Additional observations from a re-analysis of the deposited data

How the results depend on the processing

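Alternatives were run for the members' counts and medians and for the named members, and none of these kept a call while changing direction. The 30 pathway genes, the transcript-start groups and the paralog shares were not refitted. DESeq2, RLE factors, copies summed into the parent gene and the input contrast in the 8-library model moved no count by more than 1.5 times. Every median then stayed within the SD of the members' median between cultures. Single calls did move: EIF2A and EIF2B4 lost their input call by DESeq2, and EEF2 lost its own in the 8-library model. With the replicate block 6 members were higher and 11 lower in the input, as without it, and 18 were higher and 27 lower in IP over input in sh-NC; the block changed no other count of adjusted calls by more than 1.5 times, while members higher for the change at an unadjusted p under 0.05 went from 4 to 2.

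In the input comparison, 2 members were higher and 5 lower with no filter beyond 1 read, and 2 and 6 among the 23 members with no exon overlap (fewer genes tested). Leaving out a culture gave 1 to 7 higher and 4 to 14 lower. The median log2 fold change, -0.017 as reported, was -0.0013 without the filter, -0.0582 without overlapping genes and -0.0357 to -0.0014 without a culture.

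For IP over input, genes without overlap gave 7 higher and 14 lower in each arm. The median in sh-NC, -0.114, was -0.242 by library size alone, -0.0847 without the filter, -0.141 with at least 10 counts, -0.222 without overlap and -0.109 to -0.0575 without a culture. In shMETTL14, -0.0932 became -0.213 by library size, -0.125 with at least 10 counts and -0.178 without overlap. For the change, leaving out a culture gave 0 to 2 members lower and a median of -0.0123 to 0.0436. The causes of the other shifts were not tested. Counting error is small for most members, and 2 cultures per arm set the precision; EIF4E1B, EIF5A2, EIF5AL1, EIF2S3L and EEF1AKMT1 have few counts.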

Other observations

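IP over input of the genes around the translation factors differed between close functional partners as well. MTIF3, the mitochondrial initiation factor 3, had ratios of 1.98 and 2.02 in sh-NC against 1.89 and 2.06 in shMETTL14 (log2 1.00 in sh-NC, adjusted p = 7.61e-17 by edgeR), and TSFM, the exchange factor of the mitochondrial TUFM, had 1.69 and 1.85 against 1.49 and 1.85 (log2 0.82). TUFM itself, GFM1 and GFM2 were low, at -0.28, -0.25 and -0.39 in sh-NC, and the 6 mitochondrial factors divided into 3 high and 3 low in both arms. PPP1R15A and PPP1R15B were both high (log2 0.72 and 0.46). EIF4EBP2 and EIF4EBP3 were low (log2 -0.64 and -0.95) while EIF4EBP1 did not pass (0.07, adjusted p = 0.119). MKNK2, the gene of these lists with the largest input rise, was low in the IP in all 4 cultures, at 0.535 and 0.468 in sh-NC against 0.531 and 0.534 in shMETTL14. PPP1R15A had the smallest p for a change of IP over input, a log2 change of -0.15 (unadjusted p = 0.0124, adjusted p = 0.679 by edgeR).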
